A study of Mus musculus with 4 samples.

Results

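The ISG15 system is described here through 5 mouse genes, chosen by name and role from the 55399 genes of the count table. They are Isg15 itself, the E1, E2 and E3 enzyme genes Uba7, Ube2l6 and Herc6, and Usp18, which encodes the protease that removes ISG15 from proteins. All 5 passed the filter on low counts and were among the 16393 genes tested. The genes were proposed with the difference between the genotypes in view, so their own values in that contrast are given as a description. Bulk RNA-seq had been done on 4 libraries of bone marrow cells whose cell type label is Lsk, of which 2 have the genotype Ppm1bfl/fl and 2 the genotype Ppm1bCKO. The floxed group carries loxP-flanked alleles of the phosphatase gene Ppm1b, and the CKO group is taken from its label as a conditional knockout. The sources used here do not give the Cre line, the age of the mice or any pooling. Nor do they say whether each replicate is a mouse of its own. The p-values then measure only the spread between these libraries, which may be technical.

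ISG15 is a ubiquitin-like protein made of a pair of ubiquitin folds, and it is among the proteins most strongly induced by type I interferon. It is made as a precursor, trimmed to expose a C-terminal diglycine, activated by the E1 UBA7, passed to the E2 UBE2L6 and joined to lysines of target proteins by a HERC-family E3, which in mice is HERC6. USP18 cuts ISG15 off its targets and, apart from that activity, binds the interferon receptor chain IFNAR2 and damps its signalling. All of these genes are known as interferon-stimulated. PPM1B, the phosphatase targeted in this study, has itself been reported to be modified by ISG15.

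The coding bases of the conjugation tail are shown because every step of the pathway acts on it. The capitals mark the 6 codons that end in the diglycine, and in Isg15 another 6 codons follow before the stop, the part that is trimmed. The ubiquitin fusion gene Rps27a has the same tail, and 13 of the 18 capital bases were identical between them (GENCODE vM21 transcripts, sense strand).
Isg15: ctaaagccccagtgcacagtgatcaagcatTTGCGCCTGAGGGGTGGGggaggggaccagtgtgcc
Rps27a: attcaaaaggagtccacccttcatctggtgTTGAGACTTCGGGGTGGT

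The promoter of Isg15 is shown because it carries the element through which interferon-activated transcription factors are known to act. RefSeq promoter entries (GRCm38.p6) matched 4 of the 5 genes, and Usp18 had no entry. The core of the interferon-stimulated response element, GAAA followed by NN (any 2 bases) and GAAA, was searched on both strands of the 250 bases before each start site. Isg15 held 3 overlapping matches on its own strand, between 78 and 57 bases before the start, which the capitals mark (chr4:156200819-156201068, minus strand). Of 32851 such windows of all genes, 2.98% held a match.
Isg15 promoter: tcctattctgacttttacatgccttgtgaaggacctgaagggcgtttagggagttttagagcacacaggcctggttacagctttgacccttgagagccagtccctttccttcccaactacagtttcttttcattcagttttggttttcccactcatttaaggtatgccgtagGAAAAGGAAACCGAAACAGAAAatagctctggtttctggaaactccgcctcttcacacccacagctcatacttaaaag

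No match to these letters lay in the windows of Uba7, Ube2l6 and Herc6. With a shorter motif, AA followed by NN and GAAA, which overlaps the longer one and was found in 21.3% of windows, Uba7 had a single match, on the opposite strand and 27 to 20 bases before the start. It is marked in capitals in 30 bases of the Uba7 strand (chr9:107975529-107975558, plus strand), which lie within the deposited bounds of Uba7 given below, and Ube2l6 and Herc6 had none.
Uba7 promoter: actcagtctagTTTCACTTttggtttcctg

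The targeted gene was examined first. Ppm1b reached 80.8 and 82.5 CPM (the usual read count scaled to library size, here with TMM factors) in the Ppm1bfl/fl libraries, against 84.3 and 121 CPM in those with the label Ppm1bCKO. Its gene-level count was therefore not lower in the library labelled Ppm1bCKO replicate 1 or replicate 2. The count sums all exons and cannot tell whether 1 of them is missing, so every direction below depends on the labels being right.

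Lsk cells are defined by surface Sca-1 and Kit and by the lack of markers of mature blood lineages. Depth lay between 22393973 and 30045382 counts. Summed over 10 genes, Lsk and progenitor markers gave 470 to 620 CPM, with none at 0, while 8 erythroid markers gave 7024 to 14399 CPM and 8 neutrophil markers 4269 to 5284 CPM. Markers of plasmacytoid dendritic cells, which are known for high Irf7, summed to 585 and 549 CPM in the Ppm1bfl/fl libraries, against 718 and 754 CPM in the Ppm1bCKO libraries, with 10 of 10 log2 fold changes positive and 0 past the threshold. Most of that sum was Irf8 (390 and 372 CPM in Ppm1bfl/fl replicates 1 and 2) and Tcf4 (92.5 and 76.2 CPM), whose log2 fold changes were 0.14 and 0.11. The median over the list was 0.83, with Siglech at 1.12, Ccr9 at 1.02, Cd300c at 1.28, Spib at 1.56 and Klk1 at 2.58, beside 1.22 for Irf7. B cell markers summed to 204 and 217 against 323 and 673 CPM, with 10 of 10 positive. Eosinophil markers summed to 2510 and 2689 against 3684 and 6195 CPM, with 4 of 5 positive. Plasma cell markers, at 3099 and 1947 against 962 and 1226 CPM, and macrophage markers, at 737 and 755 against 425 and 551 CPM, ran the other way, with 8 of 10 and 10 of 10 negative. Jchain alone gave 2448 and 1377 against 463 and 624 CPM of the plasma cell sum, so that sum mainly follows 1 gene. Among its other markers, Derl3 was at -1.32, Tnfrsf17 at -1.16 and Prdm1 at -0.94 on the log2 scale. Xbp1 was at -0.01 and Irf4 at 0.62, and 2 of the 10 markers were positive. The part of these cells in the values of Isg15, Usp18 and Irf7 was not tested.

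**Figure D1:**
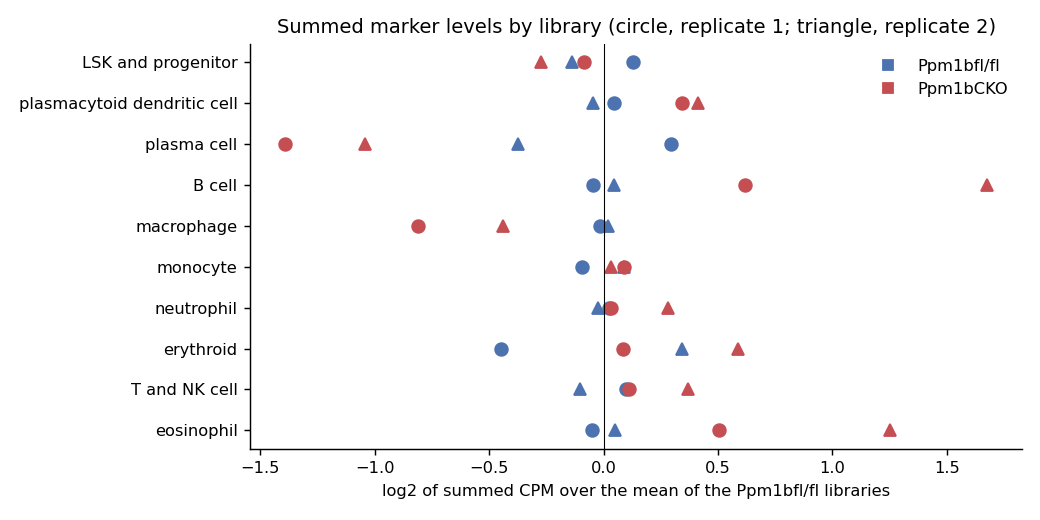
Summed CPM of each cell type's marker list as log2 over the mean of the Ppm1bfl/fl libraries, 1 point per library. B cell, eosinophil and plasmacytoid dendritic cell sums are higher, and plasma cell and macrophage sums lower, in both Ppm1bCKO libraries (red) than in both Ppm1bfl/fl libraries (blue). T and NK cell sums (166 and 145 against 168 and 201 CPM) and neutrophil sums (4417 and 4269 against 4445 and 5284 CPM) are also higher in both. Jchain is a large part of the plasma cell sum.

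Of the 5 genes, Usp18 rose 2.77-fold in the Ppm1bCKO libraries, and Isg15 had a fitted ratio of 2.94-fold that did not pass the threshold. The enzymes that attach ISG15 had log2 fold changes from 0.03 to 0.48, against 1.56 for the modifier and 1.47 for the protease. Ratios are given as Ppm1bCKO over Ppm1bfl/fl, and each ± after a log2 fold change is its standard error. In bulk RNA a change in the number of cells of a type and a change in RNA per cell cannot be told apart. The plot of CPM in each library shows the 5 genes side by side.

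**Figure D2:**
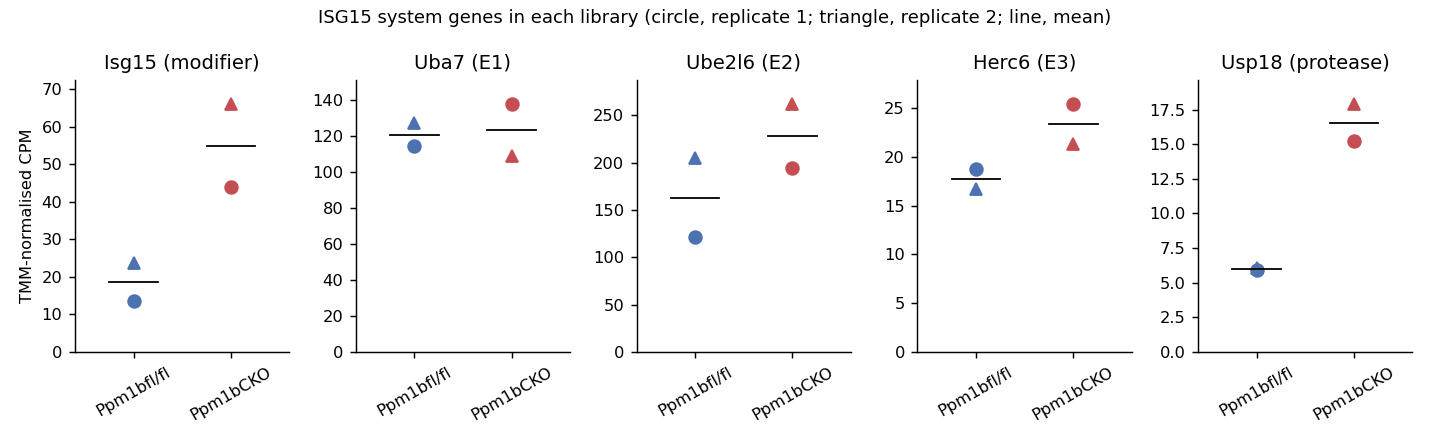
TMM-normalised CPM of Isg15, Uba7, Ube2l6, Herc6 and Usp18 in the 2 Ppm1bfl/fl (blue) and 2 Ppm1bCKO (red) libraries, each panel with its own axis from 0. Points are single libraries and lines are means of 2. The genotypes do not overlap for Isg15, Usp18 and Herc6, and they overlap for Uba7 and Ube2l6.

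Isg15 (ENSMUSG00000035692.7, mm10, chromosome 4, 156199455 to 156200796, minus strand) had 13.6 CPM in Ppm1bfl/fl replicate 1 and 23.7 in replicate 2, against 43.9 CPM in Ppm1bCKO replicate 1 and 65.9 in replicate 2. Both Ppm1bCKO libraries were above both others, and the replicates were far apart in each genotype, by 1.74-fold and 1.5-fold. The means were 18.7 ± 7.1 and 54.9 ± 15.6 CPM (SD, n = 2). The log2 fold change was 1.56 ± 0.30, and Isg15 did not pass the threshold over all genes (edgeR adjusted p = 0.125). Behind these values lay 362, 715, 997 and 1565 reads, so counting error was small beside the spread between replicates. Against the mean of the floxed libraries, Ppm1bCKO replicate 1 was higher by 1.28 and replicate 2 by 1.87 on the log2 scale. DESeq2 called the gene (adjusted p = 3.25e-05), and so did edgeR without a low-count filter (adjusted p = 1.22e-10). Leaving out Ppm1bfl/fl replicate 2, the higher of its genotype, gave 2.01 on the log2 scale, with a lone floxed library left. The value was 1.21 without Ppm1bfl/fl replicate 1, 1.82 without Ppm1bCKO replicate 1 and 1.23 without Ppm1bCKO replicate 2. Over all 12 alternatives the log2 value ran from 1.21 to 2.01 and the adjusted p from 1.22e-10 to 0.999.

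Usp18 (ENSMUSG00000030107.10, chromosome 6, 121245906 to 121270917, plus strand) had the closest replicates of the 5 genes. It had 5.90 and 6.03 CPM in the Ppm1bfl/fl libraries against 15.2 and 17.9 CPM in the Ppm1bCKO libraries, from 157, 182, 346 and 424 reads. The genotypes were well apart, with replicates within 1.02-fold and 1.17-fold of each other. Its log2 fold change of 1.47 ± 0.22 passed the threshold (edgeR adjusted p = 0.0442). It was the only one of the 5 to pass. Over all 16393 genes 0.372% passed, 0.061% as higher and 0.311% as lower, and nothing is read from this count, since the genes were proposed from the same contrast. The call was lost with limma-voom (adjusted p = 0.0512) and when immunoglobulin and T cell receptor genes were left out of the fit (edgeR adjusted p = 0.158), while the log2 fold change stayed between 1.35 and 1.58 over the 12 alternatives, with adjusted p from 9.64e-06 to 0.158.

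Uba7 (ENSMUSG00000032596.14, chromosome 9, 107975505 to 107984060, plus strand), the E1 that activates ISG15, had 114 and 127 CPM in the Ppm1bfl/fl libraries against 137 and 109 CPM in the Ppm1bCKO libraries. The highest and the lowest library were both Ppm1bCKO, so the genotypes overlapped. The log2 fold change was 0.03 ± 0.18 (edgeR adjusted p = 0.965), with 2583 to 3829 reads per library. It lay between -0.15 and 0.19 over the alternatives, so its sign was not settled.

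Ube2l6 (ENSMUSG00000027078.14, chromosome 2, 84798828 to 84810335, plus strand), the E2, differed between replicates about as much as between genotypes. Its level was 122 and 205 CPM in the Ppm1bfl/fl libraries against 194 and 262 CPM in the Ppm1bCKO libraries. Ppm1bfl/fl replicate 2 lay above Ppm1bCKO replicate 1, so the genotypes overlapped, and the log2 fold change was 0.48 ± 0.26 (edgeR adjusted p = 0.717). Single libraries moved this value from 0.15, without Ppm1bfl/fl replicate 1, to 0.90, without Ppm1bfl/fl replicate 2. Without Ppm1bCKO replicate 1 it was 0.68 and without replicate 2 it was 0.25. The summed level of 8 erythroid markers followed the same order of libraries, with 7024 and 12154 CPM in the Ppm1bfl/fl libraries against 10164 and 14399 CPM in the Ppm1bCKO libraries, and the part of these cells in the Ube2l6 values was not tested.

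Herc6 (ENSMUSG00000029798.11, chromosome 6, 57581000 to 57664632, plus strand), the E3, had 18.8 and 16.7 CPM in the Ppm1bfl/fl libraries against 25.4 and 21.4 CPM in the Ppm1bCKO libraries. Both Ppm1bCKO libraries were above both others by a small margin. The log2 fold change of 0.40 ± 0.20 did not pass (edgeR adjusted p = 0.717). Together with Isg15 and Usp18 this made 3 of 5 genes with both Ppm1bCKO libraries higher, where 20.6% of all tested genes were so arranged and 41.1% were apart in either direction. As for the calls, nothing is read from this count. The median log2 fold change of the 5 was 0.48, beside -0.0032 over all tested genes, and its size depended on the libraries (0.90 without Ppm1bfl/fl replicate 2, and at least 0.48 with any other library left out).

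Annotation limits touch Herc6 most. Of its 9292 exonic bases, 1269 are shared on the same strand with the transcript Gm45193, which was listed at 0 reads in every library. Uba7 shares 233 of 6692 exonic bases with Gm20661 (7 to 12 reads) and Usp18 shares 124 of 2790 with the opposite-strand Gm44148 (0 to 3 reads). The sources used here do not say how reads in shared bases were counted.

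**Figure D3:**
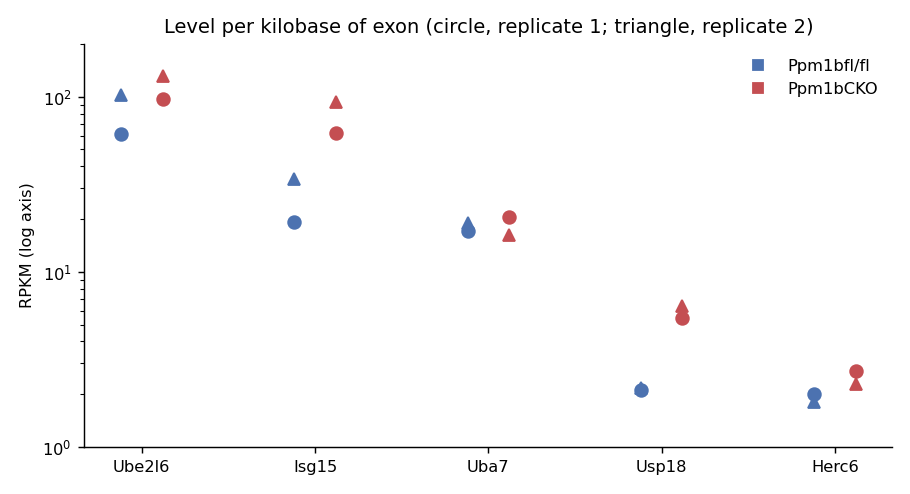
Level of each gene as CPM per kilobase of exon (RPKM, log axis) in the 4 libraries, Ppm1bfl/fl in blue and Ppm1bCKO in red. Ube2l6 is the highest and Herc6 the lowest in each library, and the gap between Isg15 and Ube2l6 is narrower in Ppm1bCKO.

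Levels of different genes were compared per length of exon, as CPM per kilobase (RPKM). The order was the same in all 4 libraries: Ube2l6, Isg15, Uba7, Usp18 and Herc6. Ube2l6 ran from 61.1 to 131 RPKM and Isg15 from 19.3 to 93.8 RPKM. These ranges overlapped across libraries, although Ube2l6 was above Isg15 within each. Uba7 lay in a narrow band of 16.3 to 20.5 RPKM. Its level was close to that of Isg15 in Ppm1bfl/fl replicate 1 (17.1 against 19.3 RPKM) and well under it in Ppm1bCKO replicate 2 (16.3 against 93.8 RPKM). Usp18, at 2.11 to 6.40 RPKM, and Herc6, at 1.79 to 2.73 RPKM, were the rarest, and in Ppm1bfl/fl they were close to each other. With the longest annotated transcript as the length, Uba7 stood above Isg15 in both Ppm1bfl/fl libraries (31.6 against 17.99 and 35.1 against 31.4 RPKM) and Herc6 above Usp18 in both (3.93 against 3.33 and 3.50 against 3.41 RPKM), so those neighbours have no firm order.

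Ratios of reads within a library do not depend on how libraries are scaled. There were 0.434 and 0.255 reads of Usp18 per read of Isg15 in Ppm1bfl/fl, and 0.347 and 0.271 in Ppm1bCKO. The genotypes overlapped, and the mean log2 ratio differed by -0.12 (two-sided exact permutation test, p = 1; 2 against 2 libraries cannot go below 0.333). The SD of the log2 ratio was 0.54 in Ppm1bfl/fl and 0.25 in Ppm1bCKO (n = 2 each), and the difference ran from -0.50 to 0.27 with 1 library left out, so a change of the ratio in either direction is compatible with these values. There were 8.97 and 8.63 reads of Ube2l6 per read of Isg15 in Ppm1bfl/fl and 4.43 and 3.97 in Ppm1bCKO. These replicates were close although both genes varied. For Uba7 the ratios were 8.40 and 5.36 in Ppm1bfl/fl and 3.14 and 1.65 in Ppm1bCKO. For Herc6 they were 1.38 and 0.703 against 0.579 and 0.324. In all 3 cases both Ppm1bCKO libraries lay lower than both others, as the choice of the genes on this contrast favours. The 3 ratios share the reads of Isg15, so they are not separate results, and they were not tested. They also carry a library's trend with gene length, described below. In Ppm1bCKO replicate 2 that trend was 0.26 for Isg15, 0.20 for Ube2l6, -0.11 for Uba7 and -0.20 for Herc6 on the log2 scale.

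Distances between the genes' profiles set the genes side by side. The measure is the Euclidean distance of log2 CPM, centred per gene, over the 4 libraries. Isg15 and Usp18 were 0.61 apart, and Uba7 and Herc6 0.44 apart, whereas Isg15 and Uba7 were 1.75 apart. Ube2l6 was 1.07 from Isg15 and 0.81 from Herc6. Among 11299 other tested genes with an average log2 CPM of at least 1, the 8 closest to the mean profile of the 5 were Klra13-ps, Xrcc4, Krt83, Oas1b, Serpinh1, Hist1h3g, Cd22 and H2-DMb2, at distances of 0.080 to 0.155. Oas1b belongs to the oligoadenylate synthetase family (annotated as a polymorphic pseudogene), Cd22 is a B cell surface lectin and Xrcc4 serves DNA end joining. Oas1b had 3.68 and 4.18 CPM in the Ppm1bfl/fl libraries, against 6.95 and 7.37 in the Ppm1bCKO libraries. Over 4 libraries many genes come close to any profile, and ranking by Pearson correlation instead gave 8 other genes, with 0 in common.

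Among related genes, counted once each, 1 of 57 tested rose and 0 fell (1.75%, beside 0.372% of all tested genes). Without Ppm1bCKO replicate 1, which leaves that genotype a lone library assumed to vary like the others, 21 passed. The gene that rose was Irf7, a factor known for amplifying the type I interferon response and for driving interferon-stimulated genes. Irf7 had 44.1 and 45.1 CPM in the Ppm1bfl/fl libraries against 105 and 103 CPM in the Ppm1bCKO libraries (log2 fold change 1.22 ± 0.16, edgeR adjusted p = 0.0204). Like that of Usp18, its profile had close replicates and genotypes far apart. The call did not hold when Ppm1bfl/fl replicate 1 was left out (edgeR adjusted p = 0.0715) or when immunoglobulin and T cell receptor genes were (edgeR adjusted p = 0.145), within a range of 1.09e-07 to 0.145 over the 12 alternatives. Its log2 fold change was 1.2 and 1.22 in those 2 fits and lay between 1.2 and 1.24 over the 12 alternatives. The other 5 interferon regulatory factors listed with Irf7 did not pass. Irf1 was at 0.47 ± 0.16, Irf5 at 0.25 ± 0.17 and Irf3 at 0.21 ± 0.20 on the log2 scale.

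**Figure D4:**
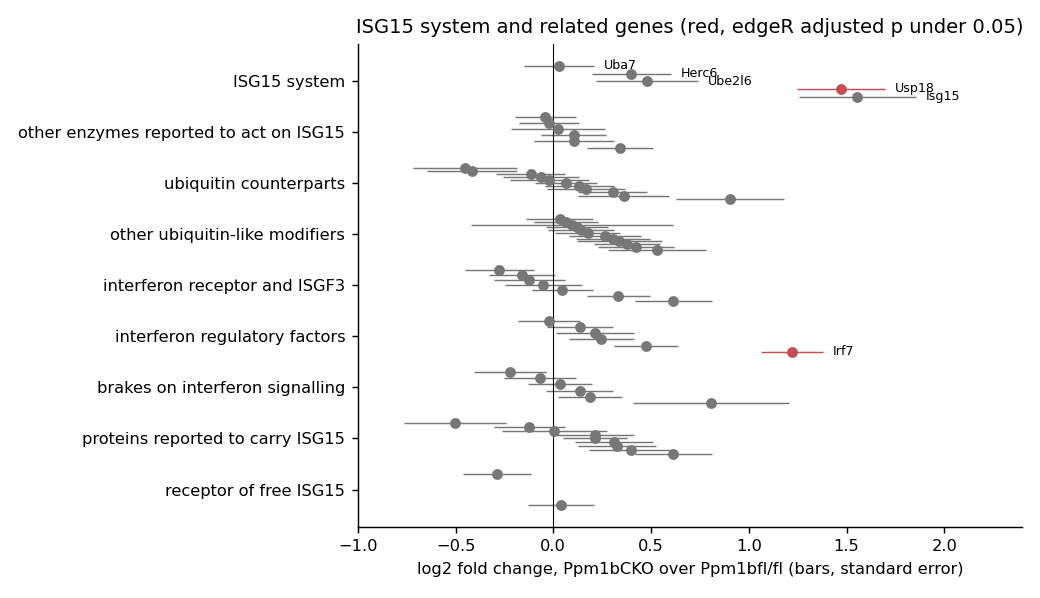
Log2 fold changes (Ppm1bCKO over Ppm1bfl/fl) with standard errors for each tested gene of the ISG15 system and of 8 related lists, 1 point per gene in each list. Red marks edgeR adjusted p under 0.05, which Usp18 and Irf7 reach, and labels name the 5 genes and Irf7.

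The receptor and the factors that carry the interferon signal to Isg15 did not pass, 0 of 7, with a median log2 fold change of -0.05. Ifnar1 and Ifnar2, the chains of the type I receptor, had log2 fold changes of -0.16 ± 0.17 and 0.05 ± 0.16. The kinase gene Tyk2 was at -0.28 ± 0.18. Irf9 and Stat2 encode parts of the complex that binds the response element. Irf9 had 80.5 and 89.1 CPM in the Ppm1bfl/fl libraries against 109 and 105 CPM in the Ppm1bCKO libraries (0.33 ± 0.16 on the log2 scale), and Stat2 had 63.9 and 56.0 against 66.7 and 49.0 CPM (-0.05 ± 0.20). Both Ppm1bCKO libraries were thus above both others for Irf9, and not for Stat2.

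Few reads were counted on most of the interferon genes examined. Of 14 such genes, 10 had 0 reads in all 4 libraries. By counting error alone, that allows up to 3 reads at these depths, or 0.0998 to 0.134 CPM. How multiply matching reads were handled is not given, so reads shared among the Ifna genes may be missing. Ifnb1 had 1 read, in Ppm1bCKO replicate 1, and Ifna2 had 2, in Ppm1bCKO replicate 2. Ifnk had 8, 2, 0 and 3 reads. Only Ifng, the type II interferon of T and NK cells, was tested, with 3.95 and 4.08 CPM in the Ppm1bfl/fl libraries against 3.17 and 2.57 in the Ppm1bCKO libraries (log2 fold change -0.48 ± 0.30, edgeR adjusted p = 0.717). Brakes on the pathway did not pass, 0 of 6, with a median of 0.09. The largest value there was that of Socs1, an inhibitor of JAK kinases, at 0.81 ± 0.40 on the log2 scale, and it was 0.08 without Ppm1bCKO replicate 2 (9.82 CPM, against 3.48 to 4.58 in the other libraries).

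Of other enzymes reported to act on ISG15, 0 of 6 tested genes passed the threshold, and their median log2 fold change was 0.06. Trim25, an E3 for both ubiquitin and ISG15, was at 0.34 ± 0.17 and the E3 gene Arih1 at -0.04 ± 0.16. Usp14 and Usp21, ubiquitin proteases reported to react with ISG15, were at 0.10 ± 0.17 and 0.11 ± 0.20. The ubiquitin counterparts of the 5 genes included 0 of 11 past the threshold (median 0.06). Ubb, which encodes a ubiquitin chain, was at 0.17 ± 0.20. The E1 gene Uba1 was at -0.12 ± 0.18 and the E2 gene Ube2l3, the ubiquitin relative of Ube2l6, at 0.30 ± 0.18. Herc1 and Herc2, large relatives of Herc6, had negative values of -0.45 ± 0.27 and -0.42 ± 0.23. Without Ppm1bCKO replicate 1 they were at -0.94 and -0.81, and without Ppm1bCKO replicate 2 at -0.09 and -0.11. With each library's trend with gene length removed, as described below, they were at -0.17 and -0.21. Rps27a had 346 and 479 CPM in the Ppm1bfl/fl libraries against 576 and 968 CPM in the Ppm1bCKO libraries (0.90 ± 0.28, edgeR adjusted p = 0.560). It passed without the low-count filter (edgeR adjusted p = 0.00175) and without Ppm1bCKO replicate 1 (edgeR adjusted p = 0.0224, log2 fold change 1.23). Its value was 0.48 without Ppm1bCKO replicate 2. Over the 12 alternatives its adjusted p ran from 0.00175 to 1.

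Genes for other ubiquitin-like systems all had a positive log2 fold change, 12 of 12, where 49.6% of all tested genes did. The median was 0.22 and 0 passed the threshold. That median was 0.08 without Ppm1bCKO replicate 2 and 0.46 without Ppm1bCKO replicate 1. Fau was at 0.53 ± 0.25 and Ufm1 at 0.38 ± 0.17. Fau had 684 CPM in Ppm1bCKO replicate 2 against 371 to 404 CPM in the other 3 libraries, and its log2 fold change without that library was 0.10. In that library short genes ran high as a whole. Its trend with gene length was 0.24 on the log2 scale for genes under 1000 exonic bases and -0.10 for genes of 4000 or more, while the other libraries lay between -0.07 and 0.05 in those classes. Isg15 has 703 exonic bases. With each library's length trend removed, the median of the 12 genes was still 0.18 and Fau was at 0.32. The log2 fold change of Isg15 became 1.38 in that fit (edgeR adjusted p = 0.138) and that of Usp18 1.39 (edgeR adjusted p = 0.0217). That of Ube2l6 was 0.33 and that of Herc6 0.54.

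Among 9 proteins reported to carry ISG15, 0 passed (median 0.21). Among them Mx1, which encodes an antiviral GTPase, was at 0.40 ± 0.21 on the log2 scale. The receptor of free ISG15, the integrin of Itgal and Itgb2, was at -0.29 ± 0.18 and 0.04 ± 0.17.

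**Figure D5:**
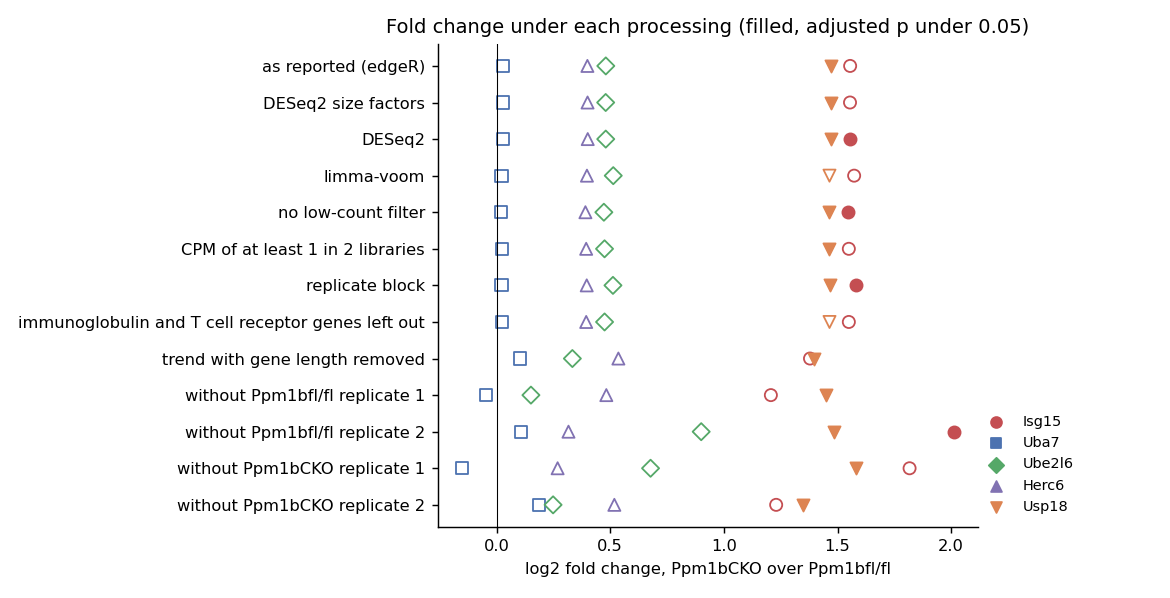
Log2 fold change of each of the 5 genes (Ppm1bCKO over Ppm1bfl/fl, horizontal axis) under each processing (rows), filled where the adjusted p was under 0.05. Usp18 stays between 1.35 and 1.58, Isg15 runs from 1.21 to 2.01, and Uba7 changes sign.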

How the data were processed

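The deposited table holds raw read counts for each gene in every library, whole numbers without normalisation, beside exonic lengths and exon coordinates. RNA extraction used TRIzol and library preparation a TruSeq RNA kit, per the labels' protocols. Per the submitters' processing notes, the build was mm10 and the tools were featureCounts 2.0.1, HISAT2 2.2.0 and Trim Galore 0.6.7. How strand and multiply matching reads were handled, and which annotation was used, is not given in the sources used here.

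Of 55399 identifiers, 55139 matched GENCODE vM21 (GRCm38) and took their symbols from it. The members, lists and tests were chosen with earlier results of these data known. The test was the robust quasi-likelihood F-test of edgeR 4.0.16 (R 4.3.3, TMM scaling, two-sided) after filterByExpr (at least 10 reads, 15 in total), Ppm1bCKO against Ppm1bfl/fl with no covariate. P-values were adjusted by Benjamini-Hochberg over 16393 genes, with a threshold of 0.05. Standard errors were taken as the log2 fold change over the square root of F. On simulated counts at these depths 38 of 95 genes made 2-fold different were called, as were 88 of 96 made 4-fold different. Another 13 calls were false, a larger share of all calls than the 0.05 aimed at (16032 genes in the fit). Genes were drawn independently there, without the length trend of the real libraries. Within each genotype the replicates were further apart than sampling noise (chi-square per degree of freedom 25.5 and 53.5), so none was taken as a library deposited again. Intervals for 0 reads cover counting error only. The genes named were the 5 members, up to 4 per related list with the smallest p, 14 fixed genes whatever their p, and the 8 nearest in profile (prior count 2); some genes under this rule are not reported here. Alternatives were DESeq2 1.42.0 and its size factors, limma-voom (limma 3.58.1), no low-count filter, 1 CPM in 2 libraries, the replicate number as a block and each library left out. Leaving out immunoglobulin and T cell receptor genes and removing each library's length trend (lowess, span 0.3) were added after the data were seen.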

Additional observations from a re-analysis of the deposited data

How the results depend on the processing

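The 61 genes called became 188 with DESeq2, 311 with no low-count filter, 207 with the replicate number as a block, 0 with immunoglobulin and T cell receptor genes left out, and 94 (without Ppm1bCKO replicate 2) to 3336 (without Ppm1bCKO replicate 1) with 1 library left out. At an unadjusted p under 0.05 edgeR had 1056 genes as reported and 985 with immunoglobulin and T cell receptor genes left out. Of the 5 genes of the ISG15 system, 1 was called as reported, 2 with DESeq2, without the filter and with the block, 0 with limma-voom and with immunoglobulin and T cell receptor genes left out, and 1 to 2 with 1 library left out. Isg15 was the added gene in each case. Among related genes, 2 were called without the filter and with the block (Irf7 and Rps27a, the latter at an edgeR adjusted p of 0.0243 with the block), 0 with immunoglobulin and T cell receptor genes left out, and 0 to 21 with 1 library left out, the last without Ppm1bCKO replicate 1. The median log2 fold change of the 5 ran from 0.48 to 0.90 with 1 library left out. Same-numbered libraries deviated together only weakly (r = 0.064 across genes). This value, from 2 libraries per genotype, cannot show whether they share a batch or only a number. With the block, Usp18 had a log2 fold change of 1.47 and Isg15 one of 1.58 (edgeR adjusted p = 1.85e-06). Over the 40 genes named, 453 of 480 alternative values stayed on the same side of the threshold. Most of these belong to genes that were not called as reported. Usp18 and Irf7, which were called, each changed side in 2 of 12 alternatives, and Isg15 in 4 of 12.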

Other observations

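Genes with the response element letters of the Isg15 promoter were described across the table. Of 385 tested genes with GAAA, any 2 bases and GAAA in a 250-base RefSeq promoter window, 3 rose and 0 fell (0.779% rose), with a median log2 fold change of 0.081. Of 10671 tested genes with a window and no match, 4 rose and 0 fell (0.0375% rose), with a median of -0.0032. The 3 were Ifit1, which binds foreign RNA caps, and the oligoadenylate synthetase genes Oas1a and Oas1g, named after their values were seen. As Oas1a and Oas1g are near-identical copies, their separate counts are uncertain. Irf7, which rose, had no match in its window, and Isg15, which has 3, did not pass. These shares are a description of the table and were not tested.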
